A study of Saccharomyces cerevisiae with 30 samples.

Results

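Break-seq peaks within 10 kb of a yeast chromosome end that overlapped no gene named YRF1-1 to YRF1-8 are described here. A peak belonged to this set when at least 1 bp of it lay in the first or last 10 kb of a nuclear chromosome (sacCer3 lengths) and it touched none of the 8 YRF1 genes. Its height, width and library did not enter the choice, and genes entered it only through the YRF1 names. There were 679 such end peaks among 1046 peaks at chromosome ends, 3682 nuclear peaks and 4046 peaks in all. The other 367 peaks at chromosome ends overlapped a YRF1 gene.

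The members farthest from an end lay at chrX:9342-9703 in WT replicate 1, chrXII:9186-9390 in INO80 replicate 2 and chrXII:9075-9435 in INO80 Mot1 HU replicate 1, with a fold over local background of 1.87, 2.18 and 2.45. The first peaks beyond 10 kb lay at chrVI:10086-10399 in INO80 Mot1 replicate 1, chrXII:10559-10816 in INO80 HU replicate 1 and chrXII:10945-11195 in Mot1 replicate 2, with a fold of 2.26, 2.55 and 7.07.

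Break-seq labels broken DNA ends in agarose plugs and sequences them, so that a peak marks a place where such reads rose over the local background. Saccharomyces cerevisiae strains with FRB-tagged proteins were used for anchor-away, in which rapamycin draws the tagged protein out of the nucleus. The strains were INO80-FRB Mot1-FRB, Mot1-FRB, INO80-FRB and WT-FRB, and each was sampled with 100 mM hydroxyurea (HU) and without it. All 8 groups, WT-FRB included, grew to mid-log phase in YPD and had 3 h of rapamycin before harvest, and each has 2 libraries. INO80 is the ATPase of a chromatin remodelling complex, Mot1 removes the TATA-binding protein from DNA, and HU lowers deoxynucleotide pools and slows replication forks. Orc5 belongs to the origin recognition complex (ORC), which marks replication origins. It was mapped by ChIP-seq in an Orc5-FRB strain, in 1 library with 1 h of rapamycin and 1 without. By this genotype Orc5 itself is the tagged protein, so the library with rapamycin maps Orc5 after its own anchor-away. How long HU was present, and how many clones the strains stand for, is not given in the sources used here.

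Yeast chromosomes end in short TG-rich repeats. Next to these lie subtelomeric repeats of different kinds: an X element is found at nearly every end and carries a sequence that ORC can bind, and some ends also have Y' elements between the X element and the telomere. Y' elements carry helicase reading frames, of which the YRF1 genes are the named examples, and they are similar from end to end. How reads that match several copies were placed is not given in the sources used here, so a peak in such a repeat is uncertain as to its end.

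The break lists differed in length before any choice of ends was made. The 2 Mot1 HU lists held 24 and 5 nuclear peaks and the 2 Mot1 lists 40 and 14, while the 12 other lists held 169 to 446. Depth is unknown, since peak lists carry no totals of reads. As a stand-in, the smallest background recovered for any peak of a list was 0.167 to 1.13 reads in the 4 Mot1 lists, against 6.66 to 31.1 in the 12 others. Whether this gap decides a result was not tested, and the 12 tests were repeated without these lists. Nothing in the labels says that the 2 libraries of a group came from separate cultures, so p-values measure a spread that may be technical.

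The end peaks numbered 33 and 27 in INO80 Mot1 HU and 51 and 58 in INO80 Mot1. Mot1 HU had 11 and 0 and Mot1 had 16 and 4. INO80 HU had 56 and 51 and INO80 had 70 and 54, and WT HU had 46 and 53 and WT had 76 and 73. In every strain both HU libraries had fewer of them than the larger list without HU, and in WT and INO80 Mot1 the counts with and without HU did not overlap. All nuclear peaks did not overlap in these strains either. They numbered 341 and 286 in WT HU against 446 and 346 in WT, and 212 and 169 in INO80 Mot1 HU against 283 and 300 in INO80 Mot1. As a share of nuclear peaks, the end peaks with and without HU overlapped in WT and did not in INO80 Mot1.

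The peaks outside YRF1 were sorted by the reading frames at the ends. Of the 32 chromosome ends, 28 had at least 1 end peak. At 10 ends the gene table has protein-coding frames of at least 1 kb without a gene name, the outermost within 2 kb of the end. These are called long-frame ends here, and they held 596 of the 679 peaks (87.8%). The 7 ends with a YRF1 gene held 52 (7.66%), all outside the gene by the rule. The 367 peaks over YRF1 genes lay at these 7 ends too and are left out by the rule. Shares by kind of end therefore do not compare how much the kinds of ends broke. The other 15 ends held 31 (4.57%), spread over 11 of them. Without the Mot1 lists, the long-frame ends held 581 of 648 peaks (89.7%), the YRF1 ends 38 (5.86%) and the other ends 29 (4.48%). Each of the 10 long-frame ends was hit in every one of the 12 lists from strains other than Mot1, with 31 to 81 peaks per end over the 16 lists.

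**Figure D1:**
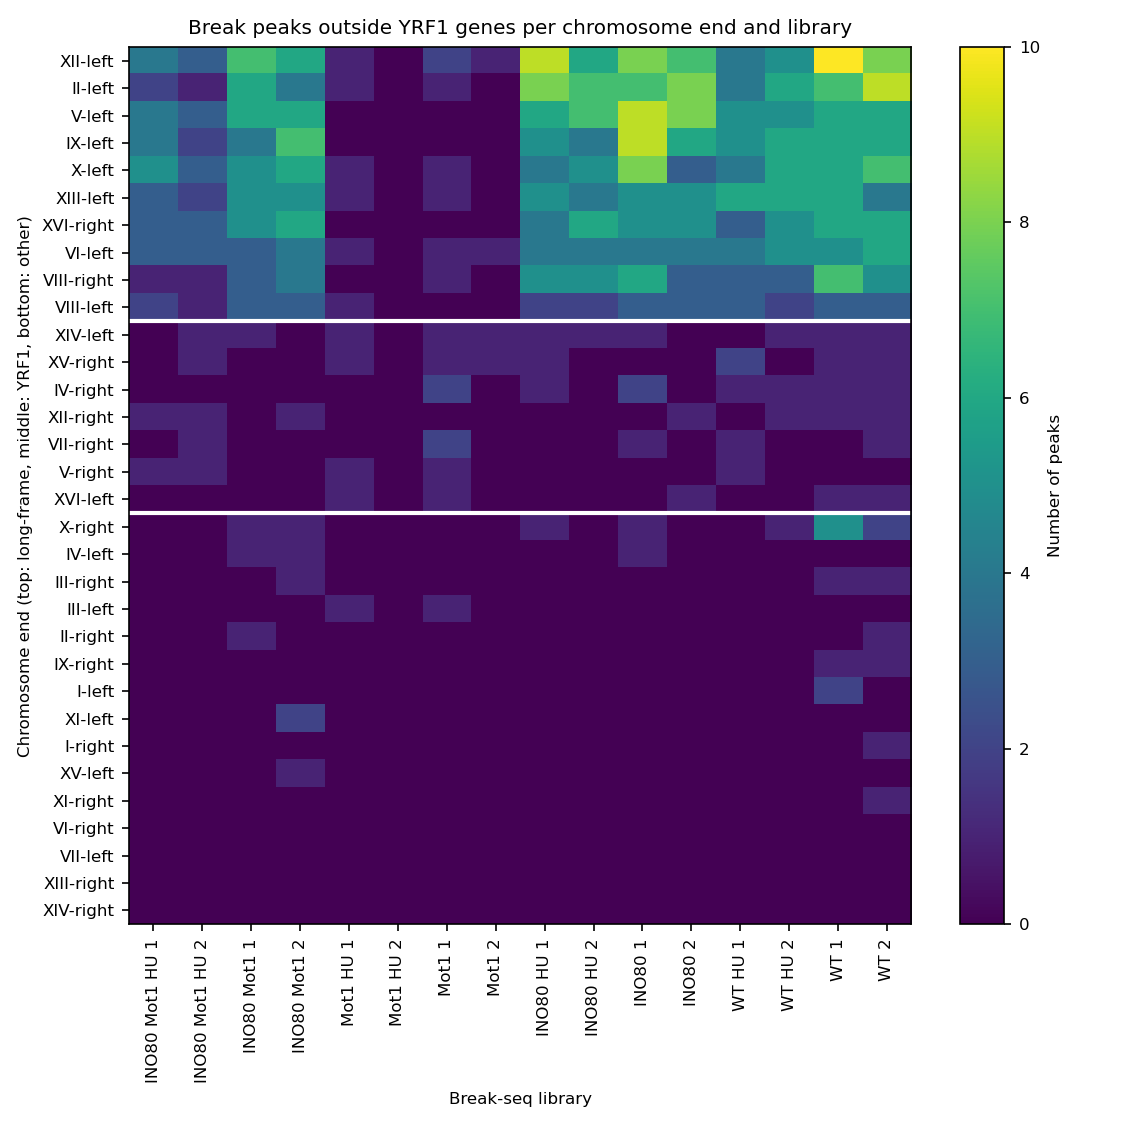
Number of break peaks outside YRF1 genes at each chromosome end (rows) in each of the 16 Break-seq libraries (columns), with long-frame ends on top, YRF1 ends in the middle and other ends at the bottom. The 10 long-frame ends hold 596 of 679 peaks, and the 4 Mot1 columns are nearly empty.

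The gene table names 13 long frames at these 10 ends, and every one overlapped an end peak in 9 to 13 libraries. YJL225C (chrX:466-6130) and YIL177C (chrIX:483-6147) held 62 and 64 peaks and are both 5665 bp long, close to the 5728 bp of YRF1-3, YRF1-6 and YRF1-7. YML133C held 55, YEL077C 50, YPR204W 35, YLL066C 33, YBL111C 32, YLL067C 30, YHR219W 23, YBL113C 22, YHL050C 20, YFL066C 17 and YHR218W 13. YLL067C and YLL066C lie one behind the other on the left end of chromosome XII and are both 3717 bp long. The set lies outside YRF1 by gene name. Whether the unnamed frames share sequence with YRF1 was not tested, because no sequence was used.

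Regions of high fold touching these frames sat in the outermost kilobases of the chromosome. At chrV:23-1101, which overlaps YEL077C, the 12 lists outside Mot1 ranged between 3.07 and 6.63 fold, with a median of 4.28. At chrVIII:560735-562420, which overlaps YHR219W, the fold over local background was 3.40 and 4.44 in INO80 Mot1 HU, 4.97 and 3.70 in INO80 Mot1, 5.58 and 5.26 in INO80 HU, 5.40 and 6.19 in INO80, 4.09 and 5.99 in WT HU and 3.52 and 4.25 in WT, and neither Mot1 group had a peak. All 12 lists outside Mot1 thus held this region, though the peak of INO80 Mot1 HU replicate 2 lay outside the frame. At chrXIII:113-1724, which overlaps YML133C, the fold was 3.33 and 6.53 in INO80 Mot1 HU, 4.23 and 3.58 in INO80 Mot1, 4.90 and 3.96 in INO80 HU, 3.97 and 4.57 in INO80, 3.84 and 4.68 in WT HU and 3.34 and 3.30 in WT. Here the peak of INO80 Mot1 HU replicate 1 lay outside the frame. Farther in, at chrXII:7718-9461 over YLL066C, the 12 lists ranged between 1.79 and 2.73 fold.

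Between the chromosome start and YLL067C, chrXII:65-530 touched no gene and was the highest of the widely shared regions. Its fold was 4.44 and 5.62 in INO80 Mot1 HU, 5.69 and 7.99 in INO80 Mot1, 6.09 in Mot1 replicate 1, 7.61 and 5.24 in INO80 HU, 4.99 and 4.99 in INO80, 5.92 and 6.32 in WT HU and 4.05 and 6.14 in WT. Both HU libraries were higher than those without HU in INO80 and lower in INO80 Mot1, and in WT the groups overlapped. The fold is the authors' own value for a peak's height in its library, and no test between groups was made on it.

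Overlapping peaks of all lists were merged into regions. Of 701 nuclear regions 87 were end regions without a YRF1 peak, and 5 more held a member joined to a YRF1 peak of another library. Without the Mot1 lists there were 684 nuclear regions and 81 such end regions. Of the 87, 16 were present in each of the 12 lists outside Mot1, all 16 on long-frame ends, and 28 had a peak in at least 10 libraries. The 5 joined regions, left out of the 87, all lay at YRF1 ends. With their YRF1 peaks counted, each was present in all 12 of these lists too. That all 16 lay on long-frame ends therefore depends on the rule. At the other extreme 21 (24.1%) were seen in 1 library, and 11 of these in WT replicate 1, the longest list.

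The 2 libraries of a group shared most of their end regions outside Mot1. INO80 Mot1 HU shared 17 regions (63.0% of replicate 1 and 100% of replicate 2) and INO80 Mot1 36 (83.7% and 80.0%). INO80 HU shared 33 (80.5% and 82.5%), INO80 41 (77.4% and 97.6%), WT HU 28 (90.3% and 71.8%) and WT 50 (80.6% and 84.7%). The Mot1 libraries shared 4 regions, which were 26.7% of replicate 1 and 100% of replicate 2, and the second Mot1 HU list had none.

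Named genes near the ends were rarely hit. Of 62 named protein-coding genes other than YRF1 that lie within 10 kb of an end, 9 overlapped an end peak. Among the PAU and DAN genes, which code for cell wall mannoproteins of anaerobic growth, 2 of 14 did, PAU8 in WT replicate 1 with a fold of 1.995 and PAU16 in INO80 Mot1 replicate 2 with a fold of 2.08. Among the COS genes, a subtelomeric family of membrane proteins, 2 of 10 did, COS2 in INO80 Mot1 replicate 1 and WT replicate 2 (2.02 to 3.06 fold) and COS5 in both WT libraries (2.18 to 2.58 fold).

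RDS1, a zinc cluster regulator of drug sensitivity, had a peak in INO80 Mot1 replicate 2 and both WT libraries (1.96 to 2.17 fold). The other 4 had one in 1 library each: IMD2, an inosine monophosphate dehydrogenase, the maltose permease homologues MPH2 and MPH3, and VBA5, of a family of amino acid transporters. The HXT, MAL and IMA, AAD, PHO11 and PHO12, SNO and SNZ, ARN and FIT, SOR, GEX, and DDI2 and DDI3 lists have 1 or 2 genes each within 10 kb of an end, and none of these had a peak. Of the 39 shorter unnamed frames 10 had a peak, and none of 5 pseudogenes did. YPR202W, a shorter frame on the right end of chromosome XVI, was hit in each of the 12 lists outside Mot1 (3.07 to 4.75 fold).

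The end peaks were sorted by what they overlapped and by distance. In the 12 lists other than Mot1, 454 of 648 end peaks (70.1%) lay in long unnamed frames, at a median midpoint distance of 2418 bp, and 65 in shorter unnamed frames. Between genes, 35 peaks lay in the first kb, and 81 lay farther in at a median of 5964 bp. Of these 648 peaks 258 (39.8%) lay within 2 kb of the end and 104 (16.05%) between 5 and 7 kb. The median fold was 4.05 for peaks between genes in the first kb, 2.68 in long frames and 2.61 for peaks between genes farther in. A site called in several lists counts once per list here, and chrXII:65-530 alone gave 12 of the 35 peaks in the first kb.

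**Figure D2:**
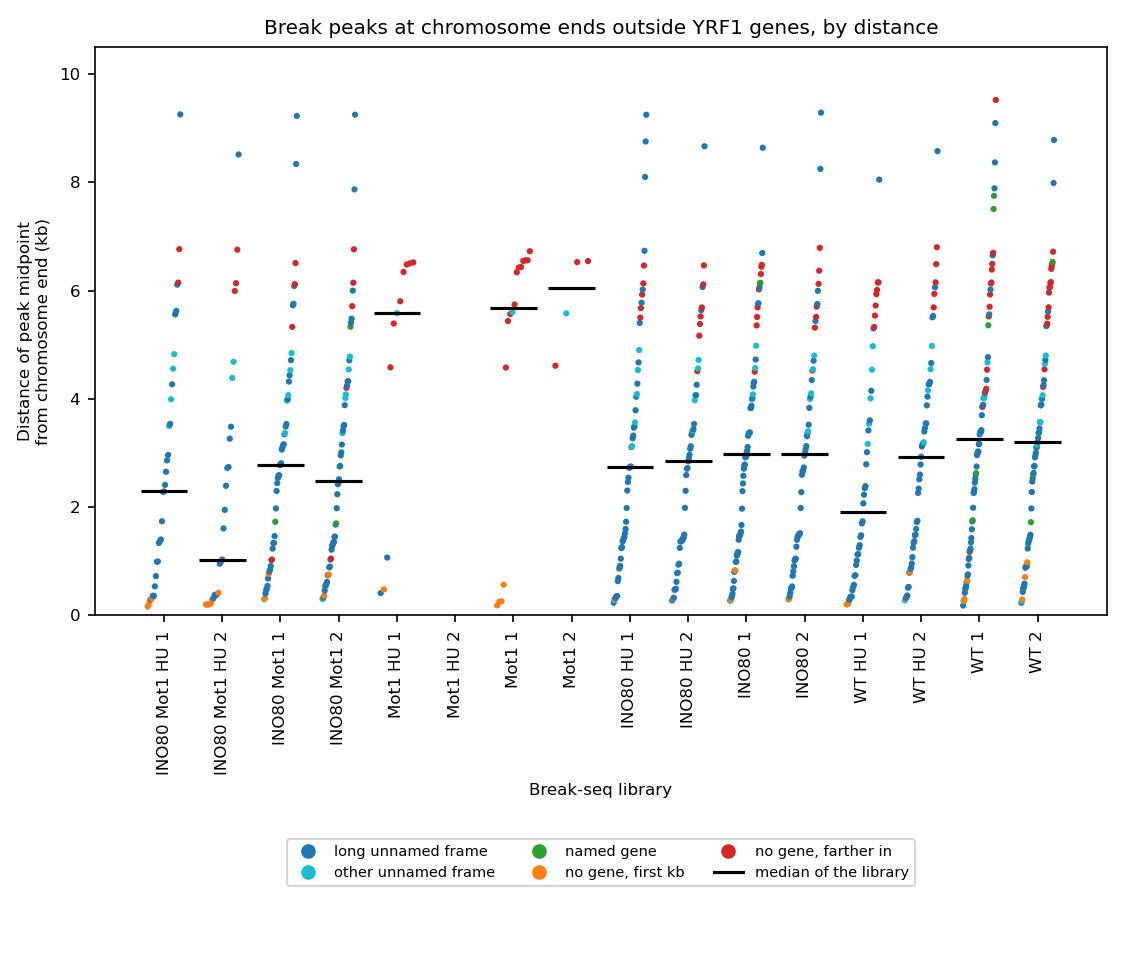
Distance in kb from the chromosome end to the midpoint of every end peak outside YRF1 genes, per library, coloured by what the peak overlaps; black bars are library medians. The Mot1 libraries have medians between 5584 and 6054 bp, and the 12 others between 1034 and 3256 bp.

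End peaks had a higher fold over their local background than other nuclear peaks of the same library, and the backgrounds under them were lower in most lists. The median background was lower under end peaks in 14 of the 15 libraries that have any, and the median read pileup of end peaks was lower in 11, equal in 2 and higher in 2, both WT. In WT HU, for example, end peaks had 36.5 and 43.0 reads over backgrounds of 10.99 and 14.6, against 44.0 and 52.0 reads over 18.1 and 21.1 for the other nuclear peaks. The median fold of end peaks was 2.61 and 3.40 in INO80 Mot1 HU, against 2.32 and 2.72 for the other nuclear peaks. It was 2.73 and 2.46 against 2.26 and 2.06 in INO80 Mot1, 5.89 against 5.24 in Mot1 HU replicate 1, and 6.49 and 7.33 against 5.95 and 5.32 in Mot1. The fold of end peaks was the higher one in each of these lists. It was 3.04 and 2.99 against 2.47 and 2.33 in INO80 HU, and 2.75 and 2.87 against 2.40 and 2.49 in INO80. In WT HU it was 2.92 and 2.79 against 2.33 and 2.36, and in WT 2.14 and 2.39 against 1.86 and 1.98.

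Over the 15 libraries with end peaks the mean was 3.52 ± 1.63 for end peaks and 2.94 ± 1.35 for the rest (SD), higher in 15 of 15, a difference of 0.581 (exact two-sided sign-flip permutation test, p = 6.104e-05, the smallest it can give; adjusted p = 7.324e-04, Benjamini-Hochberg over 12 tests). Without the lists of fewer than 50 peaks the difference was 0.460 (adjusted p = 0.00586, exact permutation). The libraries called many of the same sites, with 28 end regions in at least 10 libraries. The test is thus over libraries and does not treat sites as a sample. In the 12 lists other than Mot1, peaks at ends over YRF1 genes had a median fold of 2.44 ± 0.271, between 2.76 ± 0.331 for the end peaks outside them and 2.30 ± 0.236 for all other nuclear peaks, those over YRF1 included (SD over 12 libraries). Median width was 300.2 ± 47.1 bp for end peaks and 306.0 ± 50.9 bp for the rest, and this difference did not pass the test (-5.73 bp, adjusted p = 0.697, exact sign-flip permutation). Against a rest without ribosomal DNA, YRF1 and unnamed frames of the length of Ty retrotransposons, the end peaks were 53.6 bp wider (adjusted p = 0.0124, exact permutation). With peaks over long unnamed frames left out of the end peaks, they were narrower, by a difference of -67.7 bp (adjusted p = 0.00366, exact permutation).

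**Figure D3:**
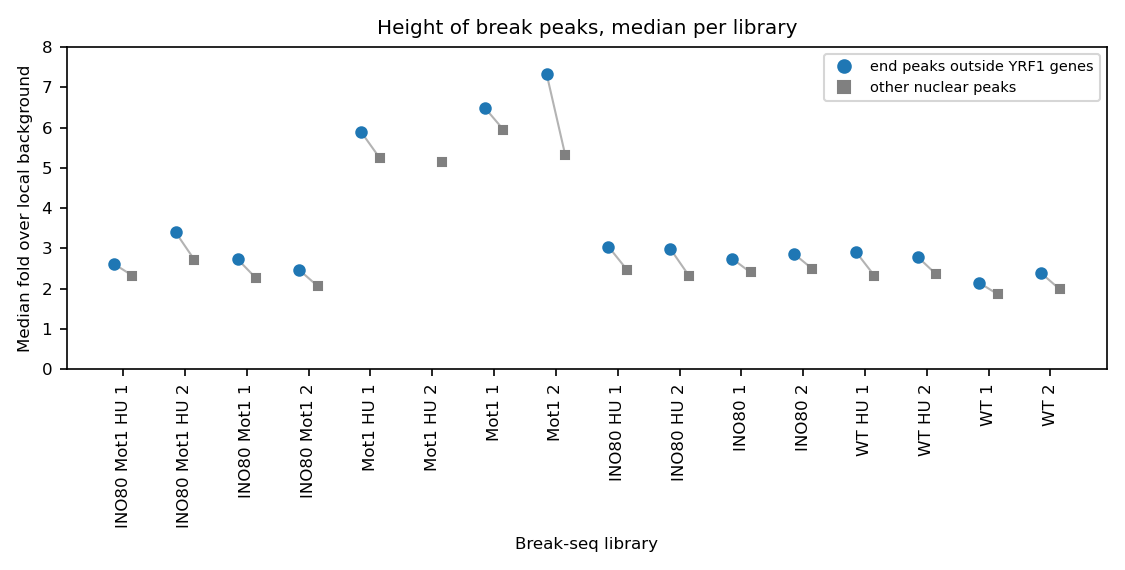
Median fold over local background of end peaks outside YRF1 genes (circles) and of the other nuclear peaks (squares) in each library; Mot1 HU replicate 2 has no end peak. The circle is higher than its square in 15 of 15 libraries.

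The share of nuclear break peaks that fell at ends outside YRF1 lay between 0 and 45.8% in the 4 Mot1 lists and between 13.5% and 22.6% in the 12 others. It was 15.6% and 15.98% in INO80 Mot1 HU, 18.0% and 19.3% in INO80 Mot1, 45.8% and 0% in Mot1 HU, 40.0% and 28.6% in Mot1, 18.0% and 15.99% in INO80 HU, 22.6% and 19.6% in INO80, 13.5% and 18.5% in WT HU and 17.04% and 21.1% in WT. The 95% Wilson intervals, which cover counting error only, ran from 27.9% to 64.9% for Mot1 HU replicate 1 and from 13.8% to 20.8% for WT replicate 1. For the 0 of 5 in Mot1 HU replicate 2 the interval ran up to 43.45%.

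HU libraries had a lower mean share in all 4 strains, 17.9 ± 12.7% with HU and 23.3 ± 7.64% without (SD, n = 8 each), but the difference of -5.35 points did not pass (adjusted p = 0.515, exact stratified permutation test, two-sided). It rested on the Mot1 HU lists: it was -11.1 points without Mot1 HU replicate 1 (adjusted p = 0.0185, exact permutation), 0.377 points without Mot1 HU replicate 2 (adjusted p = 0.927, exact permutation) and -3.35 points without the lists of fewer than 50 peaks (adjusted p = 0.0741, exact permutation). INO80 depletion gave 18.1 ± 2.37% against 23.1 ± 14.7% without it, a mean difference of -4.94 points (adjusted p = 0.515, exact permutation). Mot1 depletion gave 22.9 ± 14.7% against 18.3 ± 2.88%, a mean difference of 4.63 points (adjusted p = 0.517; exact permutation for both, SD, n = 8 each). As a share of peaks outside Ty-length frames and ribosomal DNA the Mot1 difference was 13.6 points (adjusted p = 0.0847, exact permutation), and with long unnamed frames excluded it was 10.7 points (adjusted p = 0.169, exact permutation). Without the lists of fewer than 50 peaks both turned in sign, to 1.495 points (adjusted p = 0.593, exact permutation) and -1.81 points (adjusted p = 0.133, exact permutation).

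**Figure D4:**
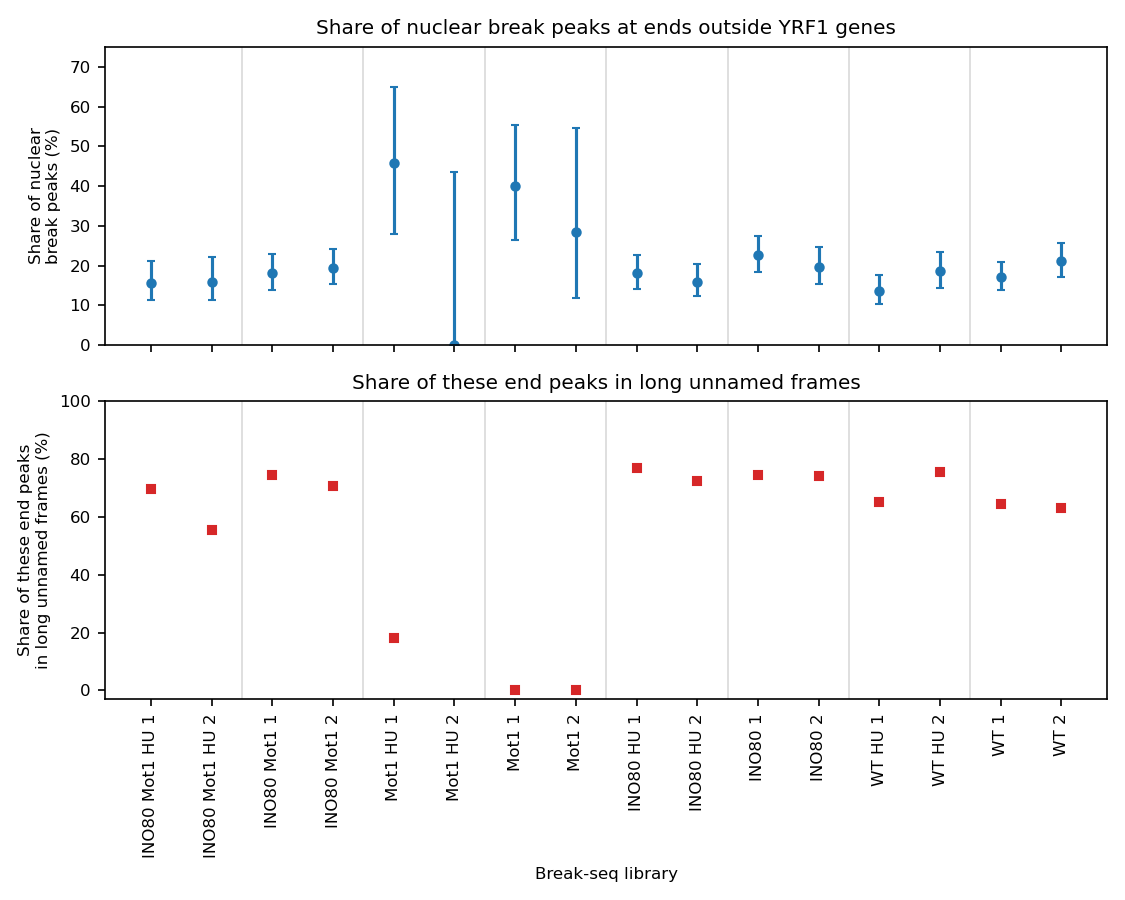
Top: share of nuclear break peaks at ends outside YRF1 genes in percent, per library, with 95% Wilson intervals. Bottom: share of these end peaks that overlap a long unnamed frame. The Mot1 and Mot1 HU libraries have wide intervals on top and lie between 0 and 18.2% at the bottom, where the 12 others lie between 55.6% and 76.8%.

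With HU the median distance of the called end peaks from the chromosome end was smaller, a call that several alternatives did not keep. Median distance was 2291 and 1034 bp in INO80 Mot1 HU and 2787 and 2482 bp in INO80 Mot1, 5584 bp in the Mot1 HU library that has end peaks and 5674 and 6054 bp in Mot1. It was 2736 and 2848 bp in INO80 HU and 2984 and 2976 bp in INO80, and 1904 and 2932 bp in WT HU and 3256 and 3202 bp in WT. Libraries with and without HU did not overlap in any of the 4 strains.

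The mean within-strain difference was -563 bp (exact stratified permutation test, two-sided, p = 0.00617, adjusted p = 0.0185), with means of 2761 ± 1411 bp with HU (n = 7) and 3677 ± 1375 bp without (SD, n = 8). Mot1 HU replicate 2 has no end peak and is left out of it. Without the lists of fewer than 50 peaks the difference was -657 bp (adjusted p = 0.0556, exact permutation), and it missed the threshold without either WT library (adjusted p = 0.0802 for each, exact permutation) or either INO80 Mot1 library (adjusted p = 0.117 without replicate 1 and 0.111 without replicate 2, exact permutation). It also missed the threshold with a window of 5 kb (-948 bp, adjusted p = 0.377, exact permutation) and with long unnamed frames excluded (-588 bp, adjusted p = 0.161, exact permutation). The lists with HU were also shorter in WT and INO80 Mot1. The smallest background of a list was 10.99 and 10.7 reads in WT HU against 31.1 and 24.2 in WT, but the groups overlapped in INO80 Mot1 (14.3 and 6.66 with HU, 11.4 and 21.2 without) and in INO80 (8.44 and 10.7 with HU, 9.39 and 8.11 without). Whether list length moves the median was not tested.

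With HU, end regions were lost and none was gained in WT and INO80 Mot1. Counting a region as gained or lost when both libraries of one group held it and neither of the other did, WT HU lost 11 of 87 end regions against WT and gained 0. Over all 701 nuclear regions 6.42% were lost and 3.71% gained in that comparison. INO80 Mot1 HU lost 10 and gained 0 against INO80 Mot1, where 5.56% of all regions were lost and 0% gained. INO80 HU lost 1 and gained 0 against INO80, with 0.713% lost and 2.43% gained over all regions, and Mot1 HU lost and gained 0 against Mot1, with 0.285% lost and 0% gained. Mot1 HU replicate 2 had no end peak, so the 0 gained in Mot1 HU was fixed in advance and is no result. With regions joined over gaps of 500 bp there were 44 end regions. The losses were then 3 in WT, 0 in INO80 and 3 in INO80 Mot1, and the gains 0 in each. The share over all regions was not computed at this gap, so these counts cannot be set against it.

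The 1 end region lost with HU in INO80, chrVIII:2856-3180 over YHL050C, was lost in WT and INO80 Mot1 too. It had a fold of 2.35 and 2.17 in INO80 Mot1, 3.02 and 2.86 in INO80 and 1.995 and 2.06 in WT, and no library with HU held it. The region over YEL077C at chrV:2665-3355 was lost in INO80 Mot1 and WT, with a fold of 2.57 and 2.35 in INO80 Mot1 and 2.07 and 2.39 in WT, while INO80 HU replicate 2 held it at 2.90. At chrXVI:943944-944195 over YPR203W, also lost in both, the fold was 1.95 and 1.98 in INO80 Mot1 and 2.40 and 1.98 in WT. The widest losses were chrXVI:944749-946042 over YPR204W in INO80 Mot1, with a fold of 2.93 and 2.29 there, and chrXII:2176-3432 over YLL067C in WT, with a fold of 2.02 and 1.94 there.

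Few end regions differed between INO80 and WT. INO80 gained 1 end region and lost 5 against WT, where 2.71% of all regions were gained and 4.28% lost. The gained one, chrV:3688-3978 over YEL077C, had a fold of 2.002 and 2.83 in INO80 and no peak in WT. The lost ones included chrIII:311122-311432 over RDS1, chrX:743004-743241 over COS5 and chrXV:1085035-1085261 between genes. With HU, INO80 gained 1, chrXII:2176-3432 over YLL067C (2.09 and 2.31 fold in INO80 HU), and lost 0 against WT HU, where 3.42% of all regions were gained and 2.0% lost.

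End regions were also compared in the strain depleted of both proteins. INO80 Mot1 gained 1 end region and lost 8 against WT, where 2.0% of all regions were gained and 3.42% lost. The gained region, chrIV:948-1143 between genes, had a fold of 2.58 and 2.21 in INO80 Mot1. Among the lost ones were chrVI:4390-4737 (2.84 and 2.42 fold in WT) and chrVIII:556945-557236 (1.91 and 2.50 fold in WT), both between genes. With HU, INO80 Mot1 gained 0 and lost 3 of 87 (3.45%) against WT HU, where 0.428% of all regions were gained and 5.56% lost. Joined over gaps of 500 bp, the losses were 3 against WT and 0 against WT HU, of 44 end regions. The share over all regions was not computed at this gap. The comparisons with WT share its libraries.

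The Mot1 lists held few of the end regions of WT. Mot1 lost 43 of 87 end regions against WT (25.1% of all regions) and gained 2 (0.999% of all regions), and with HU it lost 25 (21.3% of all regions) and gained 0 (0.285% of all regions). The 0 gained with HU was fixed in advance, since Mot1 HU replicate 2 had no end peak. Joined over gaps of 500 bp, the losses were 20 and 16 of 44 end regions and the gains 0. The share over all regions was not computed at this gap. Of 31 end peaks in the Mot1 lists 21 (67.7%) lay between 5 and 7 kb from the end, 21 lay between genes beyond the first kb, and 2 lay in a long unnamed frame.

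A Mot1 or Mot1 HU peak was present in 16 end regions, and 6 of the 16 had no peak in the 12 other lists. At chrXII:5394-5767, which overlaps the frame YLL066W-B between YLL067C and YLL066C, the fold was 9.75 in Mot1 HU replicate 1 and 12.1 and 9.22 in Mot1, and no other library had a peak in it. The next region, chrXII:5822-6337, began 55 bp farther in and held a peak in each of the 12 other lists (1.97 to 3.53 fold) and in no Mot1 list. The Orc5 peak without rapamycin at chrXII:5629-6029 overlapped end peaks of 15 libraries, 3 of them Mot1. At chrXV:1084563-1084906, between genes on the inner side of YRF1-8, it was 5.89 in Mot1 HU replicate 1 and 7.39 and 5.46 in Mot1, with no peak there in another library. These are the 2 regions gained in Mot1 against WT. The other 4 were chrIII:329-749, chrV:570193-570590 and chrXIII:5274-5563, each in Mot1 HU replicate 1 and Mot1 replicate 1 (4.94 to 7.57 fold), and chrIV:1525098-1525315 in Mot1 replicate 1 (4.54 fold).

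Other regions were held by Mot1 and other lists alike. At chrVI:4390-4737 the fold was 8.99 in Mot1 HU replicate 1 and 15.3 and 6.04 in Mot1, 2.88 in INO80 HU replicate 2, 2.75 and 2.65 in INO80 and 2.84 and 2.42 in WT. At chrXIV:6357-6680, just inside YRF1-6, it was 7.09 in Mot1 HU replicate 1 and 8.92 and 8.62 in Mot1, with 7 other lists between 2.18 and 3.04. At chrII:5596-5922 it was 6.77 in Mot1 HU replicate 1 and 4.98 in Mot1 replicate 1, with 9 other lists between 2.20 and 3.24. The folds in the Mot1 lists were taken over lower backgrounds, with a median of 10.0 reads over a background of 0.741 for the Mot1 peaks between genes beyond the first kb, against 55.0 reads over 21.0 for such peaks in the 12 other lists.

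The remaining Mot1 regions lay in the same range of distances or at the very end. These were chrVIII:556945-557236, chrVII:1084229-1084594 and chrIV:1525486-1525716 in Mot1 replicate 1, and chrXVI:6226-6561 in Mot1 HU replicate 1 and Mot1 replicate 1. Near the end they were chrX:122-945 (4.89 fold in Mot1 HU replicate 1, over YJL225C, and 4.73 in Mot1 replicate 1, outside that frame), chrVIII:71-1750 over YHL050C (4.94 fold in Mot1 HU replicate 1), and chrXII:65-530, described earlier. No peak over a YRF1 gene was in a Mot1 list, whereas the 12 other lists held 13 to 37 each at the ends.

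The share of end peaks in long unnamed frames was lowest in the 2 Mot1 lists, next in the Mot1 HU list that had end peaks, and over 50% in the 12 other lists. It was 69.7% and 55.6% in INO80 Mot1 HU, 74.5% and 70.7% in INO80 Mot1, 18.2% in the Mot1 HU library with end peaks, 0% and 0% in Mot1, 76.8% and 72.5% in INO80 HU, 74.3% and 74.1% in INO80, 65.2% and 75.5% in WT HU and 64.5% and 63.0% in WT. The 0 of 16 and 0 of 4 peaks in Mot1 come from lists too short to set a close limit. This measure was added after the data were seen.

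Libraries depleted of INO80 averaged 71.0 ± 6.64% (n = 8) and those not depleted of it 40.9 ± 33.4% (SD, n = 7), a within-stratum difference of 33.0 points in 4 of 4 strata (exact stratified permutation, p = 0.00309, adjusted p = 0.0185). Libraries depleted of Mot1 averaged 41.2 ± 34.0% (n = 7) and those not depleted of it 70.7 ± 5.55% (SD, n = 8), a difference of -32.4 points in 4 of 4 strata (exact stratified permutation, p = 0.00463, adjusted p = 0.0185). Without the lists of fewer than 50 peaks neither passed: INO80 depletion gave 7.38 points (adjusted p = 0.191, exact permutation) and Mot1 depletion -6.81 points (adjusted p = 0.250, exact permutation). Leaving out Mot1 HU replicate 1 alone took the Mot1 effect to -25.8 points (adjusted p = 0.0556, exact permutation). The HU difference in this share, 3.82 points, did not pass (adjusted p = 0.515, exact permutation).

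Median distance was 2517 ± 645 bp in libraries depleted of INO80 (n = 8) and 4086 ± 1643 bp in those with INO80 (SD, n = 7), a within-stratum difference of -1756 bp that did not pass (adjusted p = 0.0586, exact stratified permutation). It was 62.2 bp without the lists of fewer than 50 peaks (adjusted p = 1.000, exact permutation). Mot1 depletion gave 3701 ± 2016 bp (n = 7) against 2855 ± 420 bp with Mot1 (SD, n = 8), a difference of 1081 bp (adjusted p = 0.209, exact permutation), and -737 bp without those lists (adjusted p = 0.133, exact permutation). The sign of the Mot1 effect differed by INO80 status: it was -737 bp in strains depleted of INO80 and 2900 bp in strains with INO80. The difference of these effects, -3637 bp, passed (exact permutation, p = 0.00154, the smallest it can give; adjusted p = 0.0139 over 9 tests of differences), and its part with INO80 rests on the 3 short Mot1 lists that have end peaks, so it cannot be computed without them. Mot1 labels were permuted within strata, so this p-value is against no Mot1 effect in any stratum. It does not test whether the effects with and without INO80 are equal.

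Orc5 peaks lay at most chromosome ends. Among Orc5 peaks of up to 10 kb, 71 lay at 24 ends in the library with rapamycin and 68 at 27 ends in the library without. They were 3.61% of a list of 1968 with rapamycin and 4.81% of a list of 1415 without. With 1 library each, these differences have no replicate check. Of the 71 peaks with rapamycin 63 overlapped one without it (88.7%), and of the 68 without rapamycin 55 overlapped one with it (80.9%). The same overlap over the whole lists is not given here. Most lay at ends with no YRF1 gene or long frame, 43 with rapamycin and 45 without, where break peaks were few.

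On ends with YRF1 genes or long frames, the Orc5 peaks lay mainly inward of the frames. On long-frame ends the median distance of the outer edge was 5839 bp with rapamycin and 5628 bp without, and on YRF1 ends 6821 bp with rapamycin and 6674 bp without. Only 2 of 13 Orc5 peaks without rapamycin on long-frame ends overlapped a long frame, one on YBL113C and one on YHL050C. On chromosome VI the frame YFL066C ended 2615 bp from the left end, the region with the Mot1 peaks began 4389 bp from it and an Orc5 peak without rapamycin at chrVI:4533-6424 overlapped that region. On chromosome II the inner edge of YBL111C lay 5009 bp from the left end, and the break region began 5595 bp from it. The Orc5 peak at chrII:5847-7482 overlapped this region only through the peaks of 2 Mot1 libraries. No end peak of the 12 other lists overlapped that Orc5 peak.

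**Figure D5:**
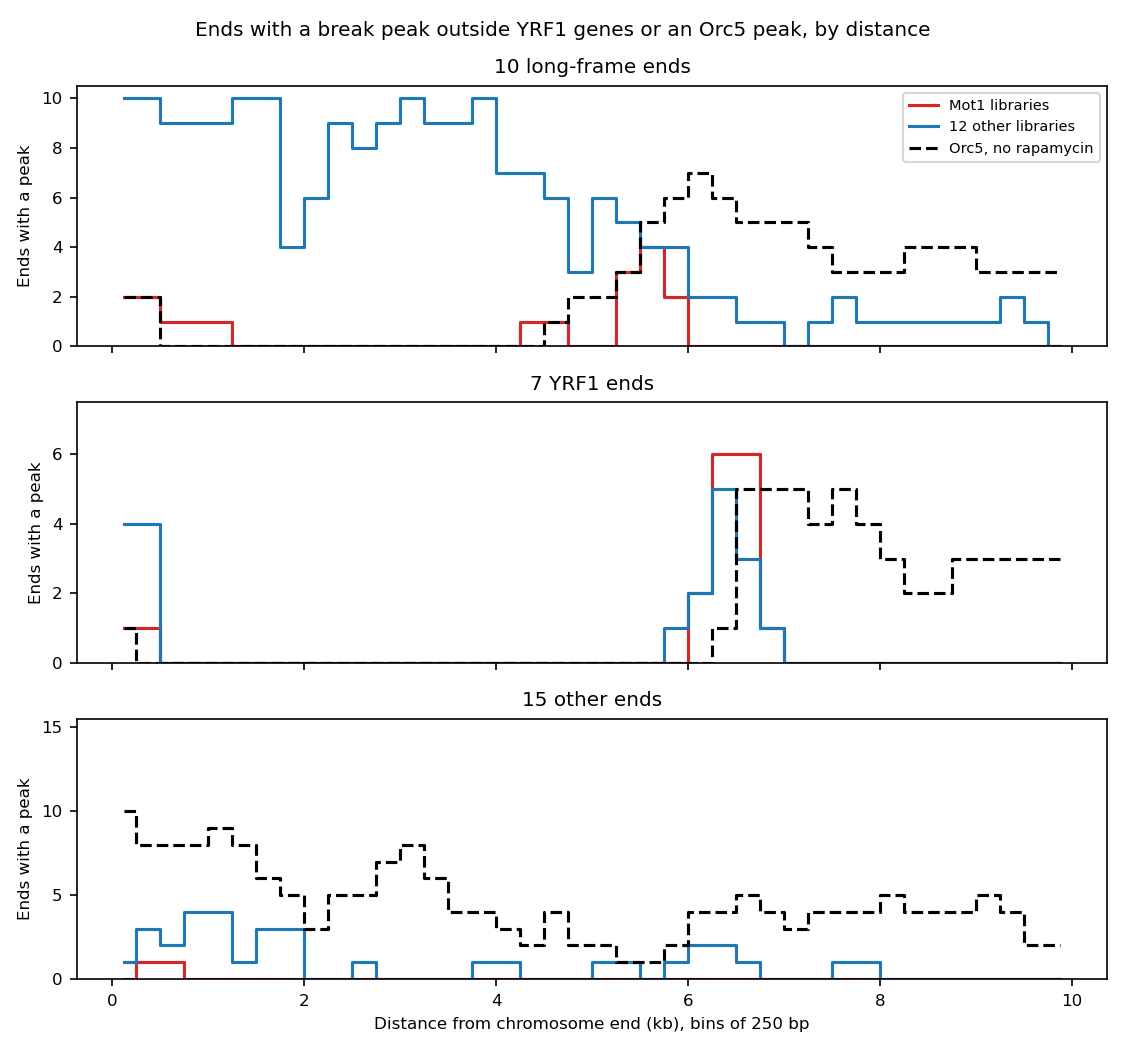
Number of chromosome ends with a break peak outside YRF1 genes in the 4 Mot1 libraries or the 12 other libraries, or with an Orc5 peak without rapamycin, in bins of 250 bp from the end, for the 10 long-frame, 7 YRF1 and 15 other ends. Between 6250 and 6750 bp, 6 of the 7 YRF1 ends have a Mot1 break peak.

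The overlap of end peaks with Orc5 peaks varied by class. Of end peaks in long frames 22 of 454 (4.85%) overlapped an Orc5 peak without rapamycin in the 12 lists other than Mot1, against 29 of 81 (35.8%) of the peaks between genes beyond the first kb. Of those 81 peaks, 62 (76.5%) lay within 500 bp of one. These are counts of peaks, so a site called in several lists counts once per list. Of the 29, the region at chrV:6012-6287 gave 11 and that at chrXII:1071063-1071618 gave 7. In the 4 Mot1 lists 15 of 31 end peaks (48.4%) overlapped an Orc5 peak and 23 (74.2%) lay within 500 bp. For example, chrV:6012-6287, between genes, had a peak in 11 of the 12 lists outside Mot1 (3.00 to 4.34 fold) and overlapped the Orc5 peak at chrV:6178-10373. In this class the shares of the 2 sets of lists lay closer, 10 of 21 (47.6%) in the Mot1 lists and 29 of 81 in the others.

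Per library the share of end peaks overlapping an Orc5 peak without rapamycin was 9.09% and 14.8% in INO80 Mot1 HU, 5.88% and 12.1% in INO80 Mot1, 45.5% in Mot1 HU replicate 1, 50.0% and 50.0% in Mot1, 3.57% and 7.84% in INO80 HU, 7.14% and 9.26% in INO80, 8.70% and 7.55% in WT HU and 13.2% and 10.96% in WT. The end peaks averaged 17.03 ± 16.6% and the other nuclear peaks 8.10 ± 7.93% (SD, n = 15), a difference of 8.93 points, higher for end peaks in 12 of 15 libraries (exact sign-flip permutation, p = 0.00946, adjusted p = 0.0227). This call depended on the lists and on what the end peaks were set against. Without the lists of fewer than 50 peaks the difference was 3.67 points (adjusted p = 0.151, exact permutation). Against a rest without Ty-length frames, ribosomal DNA and YRF1 it was -1.05 points (adjusted p = 0.814, exact permutation).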

How the data were processed

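Break peaks came from 16 deposited narrowPeak lists, 1 per library, and Orc5 peaks from 2 deposited lists of positions. Per the submitters' processing notes, reads were aligned with Bowtie2 to sacCer3; no source used here names the peak caller. A deposited break peak has the authors' score, their fold over background, and −log10 p and q-values. The score served as a filter in 1 alternative only. The labels' ChIP protocol names Orc2 depletion, whereas the genotype names Orc5.

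Peaks were matched to gene models of assembly R64, the same as sacCer3, by 1 bp of overlap. Read pileups and backgrounds were solved from fold and −log10 p as a Poisson tail, within 0.001, for 100% of the deposited peaks. A peak over several classes was put in the first of long frame, shorter frame and named gene. Ty-length frames are 40 unnamed frames of 5200 to 5450 bp.

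Libraries were grouped as labelled. Factor effects were tested by exact stratified permutation of library labels, and end peaks against other peaks by exact sign flips, two-sided, with Benjamini-Hochberg adjustment over 12 tests at 0.05, after trials on simulated data (Python 3.11.15, numpy 2.4.6, pandas 2.3.3, scipy 1.17.1). Named regions are the 25 in most libraries, up to 4 gained and 4 lost per comparison, and all with a Mot1 peak. Other windows, filters, region gaps and sets of libraries were tried as alternatives. Planned comparisons of protein sequence with YRF1 and motif searches were not run, and long unnamed frames stood in. The members and lists were chosen with earlier results of these data known. The 4 Arp5 and 8 NET-seq libraries were not used here.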

Additional observations from a re-analysis of the deposited data

Results flagged for a closer look

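The effect of Mot1 depletion on the median distance of end peaks differed between strains depleted of INO80 and strains with INO80. It was -737 bp in strains depleted of INO80 and 2900 bp in strains with INO80, a difference of -3637 bp (exact permutation, adjusted p = 0.0139 over 9 tests). Of the other 8 differences tested, none passed. In all 9 the labels of the factor were permuted within strata. The p-values are therefore against no effect in any stratum, not against equal effects. The nearest was the effect of HU on the share in long unnamed frames by INO80 status, -4.74 points with INO80 depleted and 12.4 points without, a difference of -17.1 points (adjusted p = 0.0903, exact permutation). The Mot1 lists behind the first difference hold 4 to 16 end peaks each, and their part in it was not tested.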

How the results depend on the processing

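Taking peaks by their midpoint chose the same peaks and so tested nothing. Of 80 other alternatives to the 12 tests besides leaving out a library, 50 kept direction and side of the threshold, as did 178 of 192 leave-one-out values. The higher fold of end peaks passed in all 5 such alternatives tried (0.303 to 0.792) and in all 16 leave-one-out values (0.479 to 0.602). With a window of 5 kb the INO80 and Mot1 effects on the share of end peaks were 3.42 and -2.74 points, the HU, INO80 and Mot1 effects on distance -948 (adjusted p = 0.377, exact permutation), 20.6 and -570 bp, and the width and Orc5 differences 41.4 bp and 0.693 points. With 20 kb the INO80 effect on distance was -1818 bp (adjusted p = 0.0185, exact permutation), and with only peaks above the median score of their list it was -2435 bp (adjusted p = 0.0444, exact permutation) and the HU effect on the long-frame share -4.79 points. Without lists of fewer than 50 peaks the INO80 and Mot1 effects on the share were 1.495 and -1.81 points, the HU, INO80 and Mot1 effects on distance -657, 62.2 and -737 bp, those on the long-frame share -0.962, 7.38 and -6.81 points, and the width and Orc5 differences 3.63 bp and 3.67 points. With long unnamed frames excluded too, the HU and Mot1 effects on distance were -588 (adjusted p = 0.161, exact permutation) and -281 bp and the width difference -67.7 bp (adjusted p = 0.00366, exact permutation). With YRF1 peaks kept in, the INO80 and Mot1 effects on the share were 0.848 and -1.28 points. Against a rest without Ty-length frames, ribosomal DNA and YRF1 the width difference was 53.6 bp and the Orc5 difference -1.05 points. The cause was not tested in any of these.

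Replicate numbers showed little sign of pairing the samples: deviations from group means correlated above 0.1 for 2 of 28 pairs of groups (-0.102 to 0.329). The highest value was that of Mot1 and Mot1 HU. With 2 libraries per group, low correlations cannot exclude a pairing. With a replicate block the HU effect on distance was -576 bp (adjusted p = 0.0625) and the INO80 and Mot1 effects on the long-frame share 32.3 and -28.8 points (adjusted p = 0.0750 for both, exact permutation), and no other call changed.

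Leaving out 1 library at a time, the HU, INO80 and Mot1 effects on the share ranged from -11.1 to 0.377, from -10.7 to 0.788 and from -1.10 to 10.4 points. Those on distance ranged from -720 to -406, from -1914 to -1035 and from 387 to 1238 bp, and those on the long-frame share from -0.962 to 5.59, from 29.1 to 34.7 and from -34.2 to -25.8 points. The width difference ranged from -14.3 to 0.321 bp and the Orc5 difference from 6.89 to 10.3 points. The INO80 effect on distance passed without WT HU replicate 1 or without either INO80 HU library.

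With peaks within 500 bp merged there were 44 end regions in place of 87, and 11 of 20 counts moved by over 1.5 times. Lost regions were then 3 in WT HU against WT, 0 in INO80 HU against INO80, 3 in INO80 Mot1 HU against INO80 Mot1, 3 in INO80 against WT, 20 in Mot1 against WT, 16 in Mot1 HU against WT HU, 3 in INO80 Mot1 against WT and 0 in INO80 Mot1 HU against WT HU. Gained regions were 0 in INO80 against WT, 0 in INO80 HU against WT HU and 0 in Mot1 against WT. The matching shares over all nuclear regions were not computed at this gap. Depth is unknown, and the Mot1 lists of 5 to 40 peaks limit what can be said of that strain.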

Other observations

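Orc5 peaks in the outermost sequence were found on ends where break peaks were few. Of the Orc5 peaks at ends, 16 with rapamycin and 14 without had an outer edge within 1 kb of the end, and 12 and 11 of them lay on ends with no YRF1 gene or long frame. There were 4 ends without a break peak outside YRF1 in any of the 16 lists, the right ends of chromosomes VI, XIII and XIV and the left end of VII. The right end of chromosome VI had 4 Orc5 peaks with rapamycin and 4 without. Of Orc5 peaks at ends, 3 with rapamycin and 1 without ran past the length of the chromosome in sacCer3, by 7 to 150 bp with rapamycin and by 150 bp without.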
